A study of Homo sapiens with 3 samples.

Results

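The cells described here were the 1036 day 0 BJ fibroblasts that gave the largest summed share of their transcripts to 5 genes: GDF15, AREG, PLK2, CEBPD and FGF7. BJ is an established line of human foreskin fibroblasts. The study exposed wild-type BJ cells to a chemical medium containing forskolin (a compound that drives cyclic AMP production in cells), to turn them into neuron-like cells named FiNs, and profiled single cells on days 0, 3 and 5. Each day was 1 library, so there were no replicates and no test between groups was possible. The day 0 cells were labelled as wild-type BJ fibroblasts and were grown in DMEM with serum on dishes coated with poly-D-lysine. Their label also carried the word reprogramming as treatment, which all 3 libraries shared. The labels gave no antibody sort or gate. The preparation text for day 0 named a kit for nuclei and open chromatin, whereas the table held transcript counts per gene, so whether whole cells or nuclei were loaded could not be told.

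A barcode is the tag of 1 droplet, taken as 1 cell, and a UMI is 1 counted RNA molecule. Of 17504 day 0 barcodes, 10601 had at least 3000 UMIs, and 10364 of these had at most 20% of UMIs in mitochondrial genes. These 10364 were ranked by the share of UMIs in the 5 genes, called the gate share, and the top 10% were the members. The other 9328 barcodes served as the comparison. Over the whole series, 31037 cells passed the filters of their own day. Day 0 and day 3 shared 43 barcode sequences, and 2 of these were members. No member shared a barcode with day 5.

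AREG encodes amphiregulin, a ligand of the epidermal growth factor (EGF) receptor whose gene is switched on by cyclic AMP signalling. GDF15 is a secreted stress cytokine that p53 and the ATF4 pathway both switch on, PLK2 is a polo-like kinase and p53 target, CEBPD is a transcription factor induced by cytokines and glucocorticoids, and FGF7 is a fibroblast growth factor that acts on epithelial cells. Fibroblasts in serum move between cycling and resting states and secrete growth factors and matrix in both.

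These 5 genes chose the members, so their levels are a description and nothing rests on them. AREG stood at 2074 CPM (UMIs scaled to a library of 1e6) in the members and 356 CPM in the others. CEBPD stood at 574 and 303 CPM, and FGF7 at 411 and 175 CPM, in the members and in the others. PLK2 was at 183 CPM in the members and 61.3 CPM in the others. GDF15, the first gene of the working name, was at 118 CPM in the members and 31.1 CPM in the others. AREG thus supplied 61.7% of the members' gate UMIs, against 38.4% in the others, and was the largest gate gene in 933 of 1036 members (90.1%). GDF15 led in 21 members, CEBPD in 47, FGF7 in 24 and PLK2 in 0, and 11 were tied. The median member had 39.5 UMIs of AREG and 1 UMI of GDF15. GDF15 was detected in 51.7% of members and 29.9% of the others, and day 0 held no other cell type in which to read the background from free RNA. The data therefore went against a name that puts GDF15 first, and the cells are called AREG-led members below only where AREG was their largest gate gene.

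The limit cut through a continuous range rather than a gap. The lowest member had a gate share of 0.235981% and the highest barcode left out 0.235834%. Within 10% of the limit lay 228 members above it and 258 other barcodes below it. The median gate share was 0.304% in the members and 0.0765% in the others, and the highest was 1.27%. The members' median was 65 gate UMIs and that of the others 18. When AREG was left out of the gate, 525 of the 1036 members (50.7%) were still in the top 10%. Leaving out GDF15 kept 983 members, PLK2 976, FGF7 931 and CEBPD 917.

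**Figure D1:**
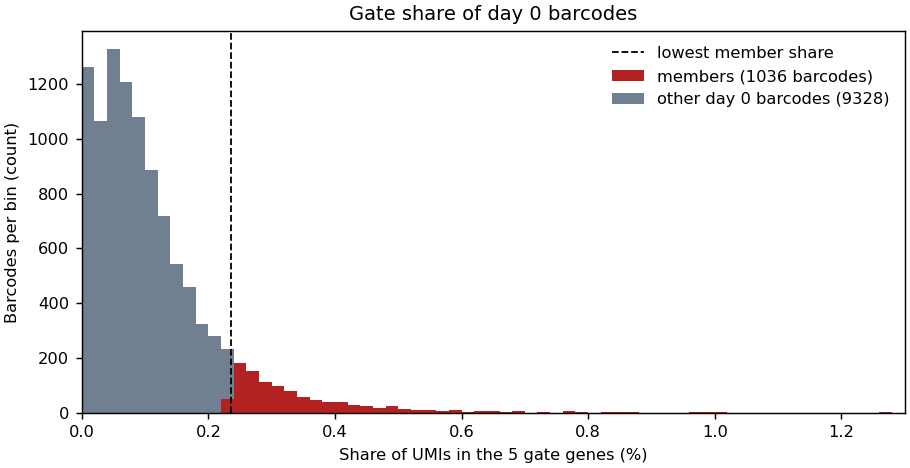
Histogram of the share of UMIs in the 5 gate genes (horizontal axis, percent) over day 0 barcodes (vertical axis, number of barcodes), with the 1036 members in red stacked on the 9328 other barcodes in grey and the lowest member share as a dashed line. The shares form 1 falling slope with no gap at the limit of 0.236%.

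Median sequencing depth was close in the 2 groups, but the low end was not. The 5th percentile was 11209.5 UMIs in the members and 3858.7 in the others. Shares of barcodes in which a gene was detected are at full depth unless thinning is named. The median was 20052 UMIs per member and 22051.5 per other barcode, with 4690.5 genes detected per member and 4949 per other barcode. Mitochondrial genes took a median of 5.92% of UMIs in the members and 6.13% in the others. Ribosomal protein genes took 16% in the members and 16.8% in the others, and the nuclear RNA MALAT1 3.18% in the members and 2.86% in the others. Members were not spread evenly over depth. Only 7 were found among the 1037 barcodes with the fewest UMIs and 30 among the 1037 with the most, against 189 of the 1036 barcodes between 14502 and 17756 UMIs. The part of depth in the results below was not tested beyond the comparison within 10 bins of UMIs, given among the alternatives.

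For every other gene the UMIs of each group were summed and given as CPM over all genes but the gate genes. Intervals are exact Poisson 95% intervals of the summed UMIs, which cover counting error only, not the spread between cultures. A gene was called higher or lower when its CPM differed at least 1.5-fold between the groups, the larger level was at least 10 CPM and the intervals did not overlap. Of 8296 genes that reached 10 CPM, 99 were higher in the members (1.19%) and 147 were lower (1.77%). At a ratio of at least 2, 9 were higher (0.108%) and 28 lower (0.338%). The shares of 1.19% and 1.77% are those to set beside the calls of each list below. The median log2 ratio of members over others was 0.0074 over all tested genes, and 5% of genes lay below -0.35 and 5% above 0.35. Most genes were thus at like levels in both groups, and the differences below are moderate in size.

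The members kept the profile of BJ fibroblasts. Of 24 tested fibroblast matrix and identity genes, 2 were higher, beside 1.19% of all tested genes, and none was lower. The list's median log2 ratio was -0.01. COL1A1, the main chain of type I collagen, was at 1960 CPM in the members and 2105 CPM in the others, and the intermediate filament VIM at 4933 and 5208 CPM in the members and in the others. The 2 genes called higher were POSTN (periostin, a matrix protein), with 52.2 CPM in the members and 29.1 CPM in the others, and PDGFRA (a growth factor receptor of fibroblasts), with 79.7 and 51.8 CPM. Many defining markers of other cell types had no UMIs in the members. The epithelial genes KRT5, KRT14, CDH1 and TP63 had 0 UMIs in the members, as did the immune genes PTPRC, CD3E and FCGR3A, the melanocyte genes MLANA, TYR and DCT, and the neuron genes DCX, STMN2 and ELAVL4. The summed level of 9 epithelial markers was 96.7 CPM in the members and 103 CPM in the others, nearly all of it KRT8 and KRT18. For 6 pericyte and smooth muscle markers it was 196 CPM in the members and 182 CPM in the others, mostly MCAM, which fibroblasts in culture also express. Endothelial markers summed to 20.7 CPM in the members and 16.3 CPM in the others, and CDH5 was at 0 in both. The 8 neuron markers summed to 98.3 CPM in the members and 82.4 CPM in the others, with a median log2 ratio of 0.38 over the 2 tested genes. SYT1, a synaptic vesicle protein, made up most of it, at 77.4 CPM in the members and 67.1 CPM in the others, and SNAP25, a membrane fusion protein of synapses, was at 17.0 and 11.6 CPM. Immune markers summed to 36.5 CPM in the members and 35.4 CPM in the others, nearly all CD68, melanocyte markers to 40.8 and 36.3 CPM, nearly all MITF, and adipocyte markers to 151 and 132 CPM. No gene of these lists was called, and their part in the results was not tested.

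The clearest group difference lay in cell division. Of 23 tested G2 and M phase genes, 20 were lower in the members, beside 1.77% of all tested genes, none was higher, and the median log2 ratio was -0.93. MKI67, a nuclear protein of dividing cells, was at 30.6 CPM in the members and 61.5 CPM in the others. TOP2A, the topoisomerase that untangles chromosomes, was at 66.3 CPM in the members and 130 CPM in the others, a ratio of 0.51 (interval 0.48 to 0.54). The mitotic kinase PLK1 had 8.39 CPM in the members and 19.0 CPM in the others. CENPA, the centromere histone, had 6.08 CPM in the members and 14.4 CPM in the others, and CDC20, an activator of the anaphase-promoting complex, 7.98 and 16.4 CPM. None of the 23 had a ratio above 1, so the list moved as a whole. Of 22 tested S phase genes, 4 were lower, beside the same 1.77%, namely RRM2, CDT1, FEN1 and CLSPN. The median log2 ratio was -0.41 over the list. That median was -0.97 with the gate without AREG, -0.048 with cycling barcodes left out and -0.043 with AREG alone as the gate. RRM2, a subunit of the reductase that makes deoxynucleotides, was at 31.6 CPM in the members and 65.7 CPM in the others.

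Fewer of the members were cycling. A barcode was counted as cycling when it held at least 3 UMIs of MKI67, TOP2A, CDK1, CCNB1 and CENPF together. Of the members 221 were cycling (21.3%, exact binomial interval 18.9 to 24.0%), against 3334 of the others (35.7%, 34.8 to 36.7%). After each barcode was thinned to 3000 UMIs, 20.2% of members and 33.6% of the others had at least 1 UMI of these genes, so the order was the same at equal depth. When cycling barcodes were left out of both groups, the median log2 ratio of the G2 and M list was -0.025 and the number of lower genes was 57 in place of 147. Cycling was defined by genes of the same list, so a median nearer 0 follows in part from that definition. Of the 26 named genes called lower, 11 were still called without cycling barcodes. The list median also depended on the gate. It was -0.42 when AREG alone chose the members, and 41 genes were then lower. It was -1.70 when AREG was left out of the gate, and 253 genes were then lower.

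The cell cycle inhibitors given here are CDKN1A, CDKN2B and CDKN1C, which do not stand for all such inhibitors. CDKN1A (p21) was at 660 CPM in the members and 578 CPM in the others, a ratio of 1.14 that was not called. The log2 ratio of CDKN1A ran from 0.0087 to 0.40 over the alternatives. CDKN2B (p15), an inhibitor of CDK4 and CDK6 that transforming growth factor beta (TGF-beta) induces, was at 13.2 CPM in the members and 8.26 CPM in the others. CDKN1C (p57) was at 10.1 CPM in the members and 6.48 CPM in the others. Both were called higher, at low levels. The growth arrest and senescence list was split. Of 13 tested genes, 7 had a ratio above 1, beside 51.6% of all tested genes, and 6 below, with a median log2 ratio of 0.0099. Called were 2 higher and 2 lower, beside 1.19% and 1.77% of all tested genes. The lower pair were IGFBP3, an insulin-like growth factor binding protein, with 49.1 CPM in the members and 105 CPM in the others, and HMGB2, a chromatin protein of dividing cells, with 60.9 and 102 CPM.

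Promoters of 2 lower G2 and M genes are shown because the list as a whole was lower. They run from 250 bases before the transcription start to 50 after it, from RefSeq on GRCh38.p14. TOP2A lies at chr17:40417847-40418146 on the minus strand and CDC20 at chr1:43358731-43359030 on the plus strand. Capitals mark TTTGAA or its reverse complement TTCAAA, the letters of the cell cycle genes homology region (CHR), the element to which repressor complexes of resting cells bind.
TOP2A: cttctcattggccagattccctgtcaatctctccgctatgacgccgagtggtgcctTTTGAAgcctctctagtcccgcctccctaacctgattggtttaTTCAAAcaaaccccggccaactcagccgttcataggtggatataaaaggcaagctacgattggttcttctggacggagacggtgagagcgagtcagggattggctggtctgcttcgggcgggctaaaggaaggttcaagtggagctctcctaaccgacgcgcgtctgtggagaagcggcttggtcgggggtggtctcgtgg
CDC20: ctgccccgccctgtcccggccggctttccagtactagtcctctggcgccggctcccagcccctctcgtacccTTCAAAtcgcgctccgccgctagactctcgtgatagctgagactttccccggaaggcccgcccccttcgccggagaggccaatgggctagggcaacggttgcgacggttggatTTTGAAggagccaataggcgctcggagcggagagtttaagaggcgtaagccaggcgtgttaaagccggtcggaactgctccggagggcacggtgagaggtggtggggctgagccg
Each held the letters at 2 positions, and the first match began at -194 in TOP2A and at -178 in CDC20, counted from the start site. Of the 26 named genes that were lower, 20 had a promoter in the table, and 10 of these (50%) held TTTGAA on either strand. The share was 29.4% of the 17 matched promoters of higher named genes and 15.4% of all 27305 promoters. A match of letters is a description and not a bound site.

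**Figure D2:**
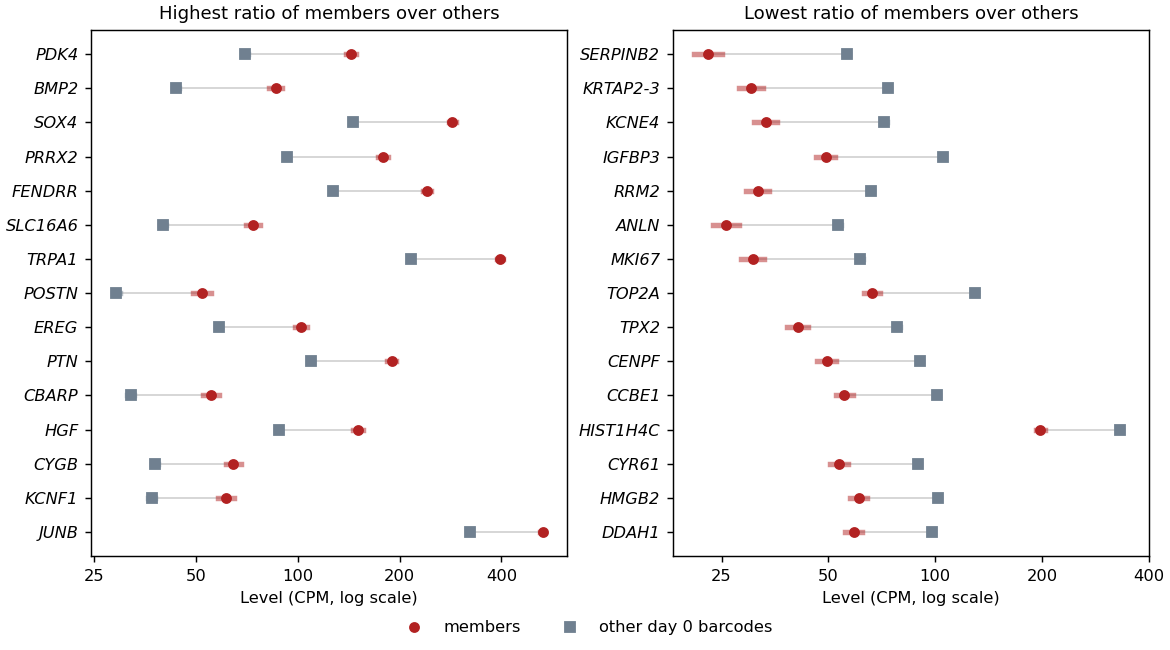
Summed level (CPM, logarithmic axis) of the 15 genes with the highest and the 15 with the lowest ratio among genes of at least 50 CPM, in the members (red circles) and the other day 0 barcodes (grey squares), with Poisson 95% intervals as thick bars. PDK4 heads the left panel at 144 against 70.0 CPM, and SERPINB2 the right panel at 22.9 against 56.3 CPM.

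Among secreted ligands, the members had more EREG. EREG encodes epiregulin, another EGF receptor ligand whose gene lies beside AREG on chromosome 4. It was at 103 CPM in the members and 58.5 CPM in the others (ratio 1.75, interval 1.67 to 1.83). The other EGF family genes were not called. HBEGF was at 69.1 CPM in the members and 87.8 CPM in the others, NRG1 at 52.4 and 45 CPM, and the receptor EGFR at 110 and 103 CPM. Genes that ERK signalling switches on downstream of such receptors did not differ as a list. None of 17 tested ERK feedback genes was called, the median log2 ratio was -0.02, and DUSP6, a phosphatase that ERK induces, was at 51.8 CPM in the members and 58.4 CPM in the others.

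HGF, the hepatocyte growth factor that fibroblasts make for epithelial cells, was higher, with 151 CPM in the members and 87.8 CPM in the others (ratio 1.71, interval 1.65 to 1.78). It was the only called gene of 7 tested FGF and HGF ligands and receptors. FGF5 was at 265 CPM in the members and 390 CPM in the others, and FGF1 at 9.80 and 14.6 CPM, neither past the 1.5-fold limit. The list to which FGF7 belongs was therefore mixed, with a median log2 ratio of -0.17. PTN, the growth factor pleiotrophin, was at 190 CPM in the members and 110 CPM in the others.

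Of 15 tested TGF-beta family genes, 2 were higher, beside 1.19% of all tested genes, and none lower. BMP2 (ENSG00000125845, GRCh38 chr20:6767664-6780280 on the plus strand), a bone morphogenetic protein, was at 86.1 CPM in the members and 43.8 CPM in the others (ratio 1.97, interval 1.87 to 2.07). BMP2 was detected in 49.1% of members and 34.5% of the others. ID1 and ID3, genes that bone morphogenetic proteins induce, were at 733 and 1057 CPM in the members and at 552 and 922 CPM in the others, below the limit for a call. Of 15 tested matrix proteases and inhibitors none was higher and 1 was lower, and the median log2 ratio was 0.17. TIMP1, a secreted inhibitor of matrix metalloproteinases, was at 1223 CPM in the members and 979 CPM in the others.

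Cyclic AMP target genes leaned higher. Of 16 tested, 13 had a ratio above 1, beside 51.6% of all tested genes. Called higher were 2, beside 1.19% of all tested genes, and none was lower. The list's median log2 ratio of 0.37 stood beside 0.0074 over all tested genes. PTGS2, the inducible cyclooxygenase, was at 24.5 CPM in the members and 12.9 CPM in the others, though 29.9% of its UMIs in the members sat in 10 barcodes. NR4A2, a nuclear receptor of the immediate early class, was at 506 CPM in the members and 337 CPM in the others. Its relative NR4A1 was at 444 CPM in the members and 311 CPM in the others, and STC1 (stanniocalcin, a secreted glycoprotein) at 1593 and 1077 CPM, both just under the limit. FOS, a classical early gene of the same list, was at 171 CPM in the members and 213 CPM in the others, so the list did not move as a whole. AREG itself is often counted among these targets and was left out because it chose the members.

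Promoters of EREG and PTGS2 are shown because both genes were higher and both are known to respond to cyclic AMP. EREG lies at chr4:74364895-74365194 on the plus strand and PTGS2 at chr1:186680374-186680673 on the minus strand, in RefSeq on GRCh38.p14. Capitals mark TGACG or its reverse complement CGTCA, the core letters of the cyclic AMP response element (CRE).
EREG: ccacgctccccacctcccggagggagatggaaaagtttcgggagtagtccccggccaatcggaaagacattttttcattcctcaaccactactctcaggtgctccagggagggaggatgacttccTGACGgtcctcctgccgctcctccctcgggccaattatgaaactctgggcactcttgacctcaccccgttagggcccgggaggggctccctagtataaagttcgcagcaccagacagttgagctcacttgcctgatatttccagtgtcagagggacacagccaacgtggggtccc
PTGS2: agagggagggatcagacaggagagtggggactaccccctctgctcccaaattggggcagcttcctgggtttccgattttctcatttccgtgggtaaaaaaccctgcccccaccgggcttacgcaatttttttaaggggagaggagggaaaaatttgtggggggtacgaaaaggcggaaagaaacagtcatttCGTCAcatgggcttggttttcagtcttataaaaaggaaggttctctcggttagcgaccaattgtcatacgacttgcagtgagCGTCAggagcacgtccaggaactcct
The match began at -125 in EREG and the first of 2 at -58 in PTGS2. These letters were in 6 of 17 matched promoters of higher named genes (35.3%), in 9 of 20 of lower ones (45%) and in 25% of all promoters. The full element TGACGTCA, which contains the core, was in 1 of 17, in 1 of 20 and in 1.98% of all. The letters were thus no more frequent among the higher genes than among the lower ones.

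Early response genes as a class were split. Of 22 tested, 2 were higher and 2 lower, beside 1.19% and 1.77% of all tested genes, with a median log2 ratio of 0.08. JUNB, a subunit of the AP-1 factor, was at 530 CPM in the members and 323 CPM in the others (ratio 1.64, interval 1.61 to 1.67). KLF2, a zinc finger factor, was at 49.9 CPM in the members and 32.4 CPM in the others. The lower pair were CYR61, a matricellular protein driven by YAP and serum response factor, with 53.5 CPM in the members and 89.5 CPM in the others, and IER5, with 18.7 and 29.5 CPM. Over the list 14 genes had a ratio above 1, beside 51.6% of all tested genes, and 8 below. JUN was at 43.3 CPM in the members and 62.7 CPM in the others, and EGR1 at 24.6 and 23.2 CPM.

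Chaperones of the endoplasmic reticulum leaned higher by a small amount. None of 16 tested genes passed the 1.5-fold limit. A ratio above 1 was seen in 13, beside 51.6% of all tested genes, and the median log2 ratio was 0.31. HSPA5 (BiP), the main chaperone of that compartment, was at 558 CPM in the members and 392 CPM in the others (ratio 1.42, interval 1.40 to 1.45). MANF was at 156 CPM in the members and 105 CPM in the others, and HSP90B1 at 619 and 455 CPM. XBP1, a factor that switches such genes on, was at 85.6 CPM in the members and 94.7 CPM in the others, and the co-chaperone DNAJB9 at 32.3 and 33.9 CPM.

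The 2 pathways best known for GDF15 gave almost no calls over the members as a whole. None of 27 tested ATF4 and integrated stress response genes was called, and the median log2 ratio was -0.13. Of the 27, 9 had a ratio above 1, beside 51.6% of all tested genes. ATF4 was at 106 CPM in the members and 128 CPM in the others, DDIT3 (CHOP) at 18 and 17.6 CPM, and MTHFD2, a mitochondrial folate enzyme, at 53.2 and 75.7 CPM. Of 23 tested p53 target genes, 1 was higher, beside 1.19% of all tested genes, and none lower. The p53 list leaned higher by a small amount, with a median log2 ratio of 0.16. In it 18 genes had a ratio above 1, beside 51.6% of all tested genes. The called gene was FDXR, a mitochondrial ferredoxin reductase, at 23.0 CPM in the members and 15.1 CPM in the others. MDM2, the ubiquitin ligase of p53, was at 81.5 CPM in the members and 72.9 CPM in the others, and PMAIP1 (NOXA) at 97.1 and 130 CPM.

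The lists tied to CEBPD and to inflammation held 2 called genes. Of 14 tested C/EBP and glucocorticoid target genes none was called, and the median log2 ratio was 0.16. CEBPB, a sister factor, was at 410 CPM in the members and 308 CPM in the others, and KLF9, a glucocorticoid target, at 120 and 87.9 CPM. Of 13 tested inflammatory genes, PTGS2 and IL24 were higher, beside 1.19% of all tested genes, and none was lower, with a median log2 ratio of 0.22 that was -0.071 when AREG alone chose the members. IL24, a cytokine of the interleukin 10 family, was at 40.4 CPM in the members and 26.6 CPM in the others, IL6 at 47.9 and 50.1 CPM, and CXCL8 at 87.0 and 65.0 CPM. Of 18 tested contractile and actin genes, 2 were lower, beside 1.77% of all tested genes, and none higher, with a median log2 ratio of -0.14. Of the 18, 3 had a ratio above 1, beside 51.6% of all tested genes. CNN1 (calponin) was at 7.08 CPM in the members and 14 CPM in the others, and ACTG2, a smooth muscle actin, at 20.1 and 36.0 CPM.

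Other pathways that stress or culture density can move gave few calls. None of 15 tested NRF2 targets (median log2 ratio -0.08), 16 hypoxia and glycolysis genes (-0.02), 18 cholesterol synthesis genes (0.05) or 14 heat shock genes (-0.0057) was called. Of 14 YAP and TEAD targets CYR61 alone was lower. VEGFA, an angiogenic factor of the hypoxia list, was at 187 CPM in the members and 141 CPM in the others. HSPA1A, the inducible heat shock chaperone, was at 71.0 CPM in the members and 88.9 CPM in the others, below the limit for a call. HSPA1A and its copy HSPA1B are near-identical, so the split of reads between them is uncertain.

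**Figure D3:**
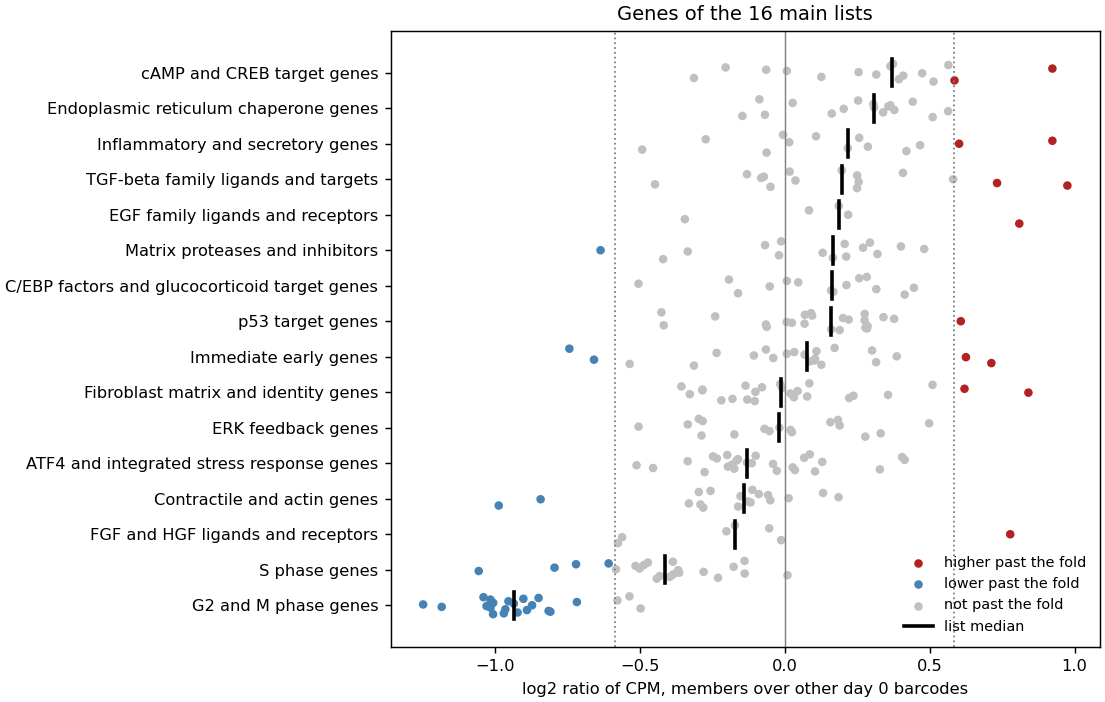
Each point is 1 tested gene of the 16 main lists, placed by its log2 ratio of members over other day 0 barcodes, with list medians as black bars and dotted lines at 1.5-fold. G2 and M phase genes stand lowest with a median of -0.93, and cyclic AMP and CREB target genes highest with 0.37.

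Several of the largest differences belonged to no list. PDK4 (ENSG00000004799, GRCh38 chr7:95583499-95596491 on the minus strand), the kinase that shuts pyruvate out of the mitochondrial citric acid cycle, was at 144 CPM in the members and 70.0 CPM in the others (ratio 2.05, interval 1.98 to 2.13). It was detected in 63.9% of members and 42.2% of the others, and its 10 richest barcodes held 8.52% of the members' UMIs, so many cells carried the difference. SOX4, a developmental transcription factor, was at 287 CPM in the members and 146 CPM in the others (ratio 1.96). PRRX2, a homeobox factor of mesenchyme, was at 179 CPM in the members and 92.8 CPM in the others. FENDRR, a long noncoding RNA of mesoderm that neighbours FOXF1, was at 241 CPM in the members and 127 CPM in the others. TRPA1, an ion channel for irritants, was at 396 CPM in the members and 216 CPM in the others. SLC16A6, a monocarboxylate transporter, was at 73.9 CPM in the members and 40.0 CPM in the others.

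Among genes of at least 50 CPM, the lowest ratios outside the cell cycle were those of SERPINB2 and KRTAP2-3. SERPINB2 (ENSG00000197632, GRCh38 chr18:63871692-63903890 on the plus strand), an intracellular inhibitor of plasminogen activators, was at 22.9 CPM in the members and 56.3 CPM in the others (ratio 0.41, interval 0.37 to 0.45). KRTAP2-3, a hair keratin associated protein gene with near-identical relatives, so that reads may be split among them, was at 30.3 CPM in the members and 73.4 CPM in the others. KCNE4, a potassium channel subunit, was at 33.3 CPM in the members and 71.8 CPM in the others. CCBE1, a matrix protein of lymphatic growth, was at 55.5 CPM in the members and 101 CPM in the others. All 4 were also called lower when cycling barcodes were left out, with a log2 ratio of -1.27 for SERPINB2, -1.37 for KRTAP2-3, -1.15 for KCNE4 and -0.84 for CCBE1. With the gate without AREG, the log2 ratio was -0.70 for SERPINB2, -1.09 for KRTAP2-3 and -0.65 for KCNE4, all still called, and -0.49 for CCBE1, which was not.

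Since the limit was arbitrary, the same genes were followed over 10 bins of gate share, each with about 1036 barcodes, of which bin 10 was the members. Among the barcodes that were not members, all 24 named higher genes had a larger level in bin 9 than in bin 2, with a median log2 ratio of 0.92, and all 26 named lower genes a smaller one, with a median of -0.94. PDK4 was at 35.6 CPM in bin 2, 72.2 CPM in bin 5, 107 CPM in bin 9 and 144 CPM in bin 10. BMP2 was at 30.0, 44.0, 63.8 and 86.1 CPM in the same bins. The gradient went on inside the members: PDK4 was at 118 CPM in the lower 518 of them and 172 CPM in the upper 518. TOP2A was at 192 CPM in bin 2, 117 CPM in bin 5, 97.2 CPM in bin 9 and 66.3 CPM in bin 10. KRTAP2-3 was at 91.6, 78.3, 45.6 and 30.3 CPM in the same 4 bins. COL1A1 stayed between 1960 and 2191 CPM from bin 2 to bin 10. Bin 1 stood apart, with a median of 4584.5 UMIs per barcode against 20184 to 24460 in bins 2 to 9, and its COL1A1 was at 979 CPM, so its levels are not read as part of the range. The barcodes of bin 1 were nevertheless kept among the others in the main comparison.

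**Figure D4:**
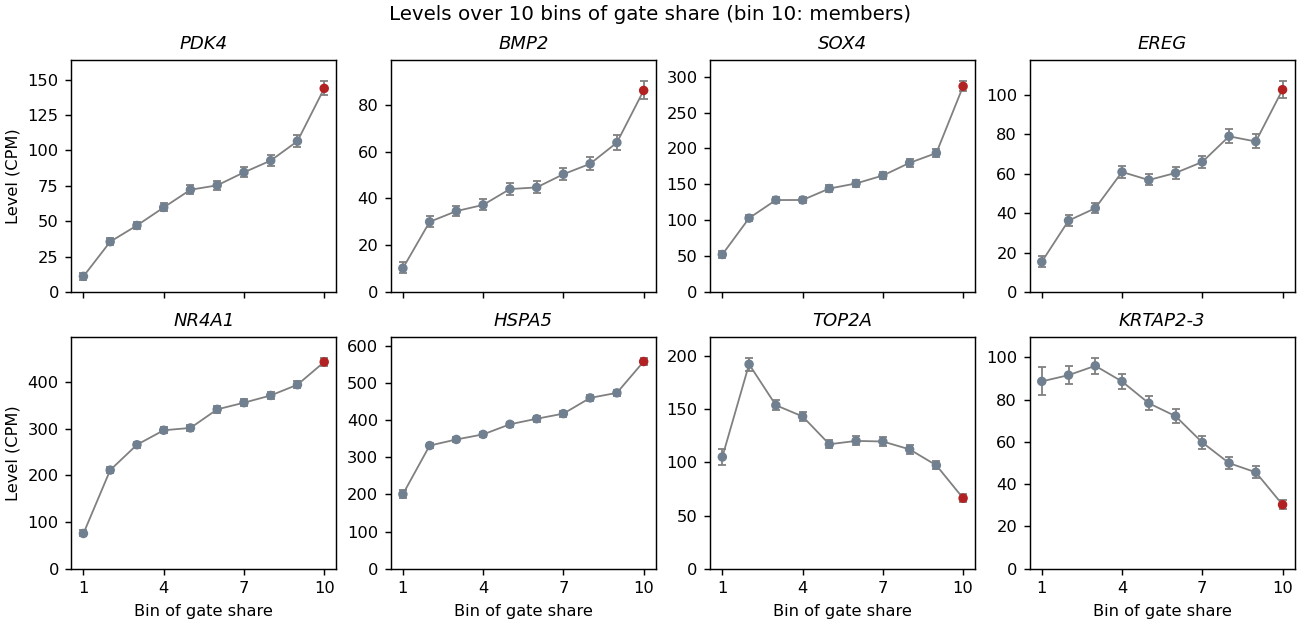
Summed level (CPM, linear axes from 0) of 8 genes over 10 bins of rising gate share, with Poisson 95% intervals and the members as the red point of bin 10. PDK4, BMP2, SOX4, EREG, NR4A1 and HSPA5 are higher in bin 10 than in bin 2, with small steps down in EREG on the way, while TOP2A and KRTAP2-3 end at 66.3 and 30.3 CPM.

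The members were not uniform, and the gene that led the gate marked a difference among them. The 21 GDF15-led members had more p53 target transcripts than the 933 AREG-led members. Of 23 tested p53 targets, 22 had a higher CPM in the GDF15-led members and 20 were at least 1.5-fold higher. Over all 8296 tested genes, 45.2% were higher in the GDF15-led members, 11.7% at least 1.5-fold, and 19.4% were at least 1.5-fold lower. The median share of UMIs in the list was 0.40% per GDF15-led barcode (range 0.174 to 1.45%) and 0.179% per AREG-led barcode (range 0.0289 to 0.790%), and these ranges overlapped. CDKN1A was at 2860 CPM in the GDF15-led members and 613 CPM in the AREG-led members, with medians of 28 and 10 UMIs per barcode. Here 5 barcodes held 73.4% of the GDF15-led CDKN1A UMIs, so the summed level overstates the typical cell. MDM2 was at 254 CPM in the GDF15-led members and 76.6 CPM in the AREG-led members, with medians of 2 and 1 UMIs per barcode. Of its GDF15-led UMIs, 61.7% were in 5 barcodes. All counts of genes for the GDF15-led part rest on such summed levels of 21 barcodes. DDIT3 was at 227 and 13.2 CPM in the GDF15-led and AREG-led members, but 90.5% of its GDF15-led UMIs were in 5 barcodes. Of 27 ATF4 pathway genes, 23 were higher in the GDF15-led members, 10 of them at least 1.5-fold, and 3 were at least 1.5-fold lower. All 15 tested NRF2 targets were higher in the GDF15-led members, 8 at least 1.5-fold, and the list summed to 51733 CPM there and 23845 CPM in the AREG-led members. GDF15 itself is a target of both pathways and sorted these cells, which was not separated from the rest here.

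The same 21 cells also differed from the AREG-led members in other genes. PDK4 was at 51.3 CPM in the GDF15-led members (interval 30.9 to 80.0) and 144 CPM in the AREG-led members. NR4A1 was at 224 and 447 CPM in the GDF15-led and AREG-led members, and 6 of 16 cyclic AMP targets were at least 1.5-fold lower, beside 19.4% of all tested genes. MKI67 had 0 UMIs in the 21 GDF15-led barcodes and was detected in 20.9% of AREG-led members. TOP2A was at 2.70 and 71.4 CPM in the GDF15-led and AREG-led members, the former from very few UMIs. Low levels of division genes were not particular to these 21 cells, and MKI67 was detected in 4.17% of FGF7-led members. The G2 and M list summed to 121 CPM in the GDF15-led, 123 CPM in the FGF7-led, 302 CPM in the CEBPD-led and 556 CPM in the AREG-led members. Levels of BMP2 reached 340 CPM in the GDF15-led members, against 82.7 CPM in the AREG-led members, with 81.7% of those UMIs in 5 barcodes. The GDF15-led barcodes had a median of 15444 UMIs and the AREG-led ones 20179. The 24 FGF7-led members were close to the AREG-led ones in NR4A1, with 436 CPM against 447 CPM, and had more PDK4, at 250 CPM (interval 209 to 297). The 47 CEBPD-led members had 112 CPM of PDK4 and 20.9 CPM of TOP2A.

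**Figure D5:**
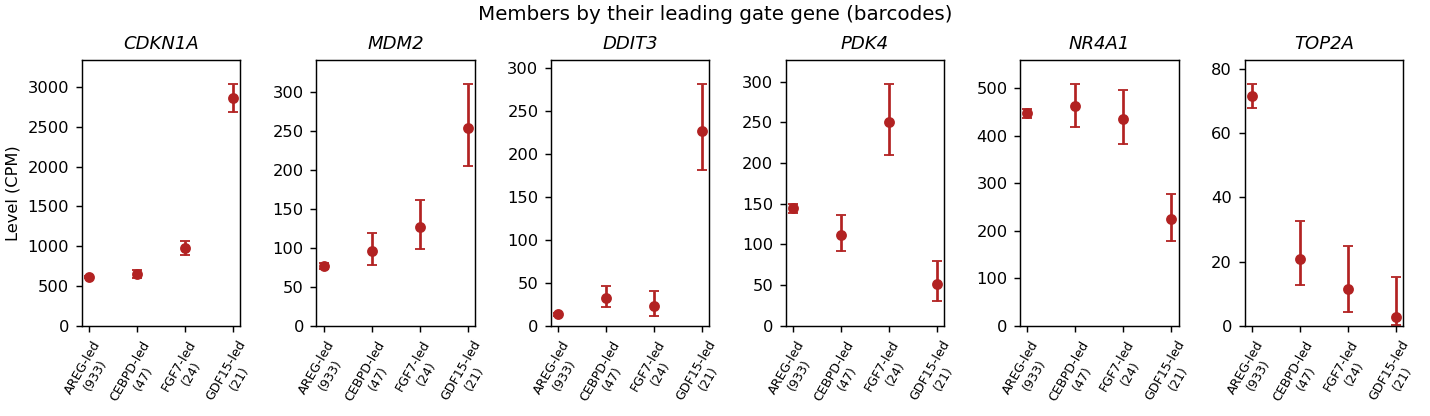
Summed level (CPM, linear axes from 0) of 6 genes in members grouped by their largest gate gene (number of barcodes in brackets), with Poisson 95% intervals that cover counting error only. The 21 GDF15-led members stand highest in CDKN1A, MDM2 and DDIT3 and lowest in PDK4, NR4A1 and TOP2A.

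The later libraries put these levels in context, with CPM over the genes in both feature tables and no test, since each day was 1 library and days differ in depth. At day 3, 11454 cells had a median of 1324 UMIs, and at day 5, 9219 cells had a median of 4374. MALAT1 took 34311 CPM in the members, 32256 CPM in the other day 0 barcodes, 217292 CPM at day 3 and 73543 CPM at day 5, and its part in the day values was not tested. AREG was at 1432 CPM at day 3 and had 0 UMIs at day 5, and GDF15 was at 425 and 4.25 CPM on those days. Several genes that were higher in the members were higher again at day 3. SOX4 was at 287 CPM in the members, 146 CPM in the other day 0 barcodes, 1808 CPM at day 3 and 237 CPM at day 5. EREG was at 103, 58.5, 436 and 0.45 CPM in the same order, and HGF at 151, 87.8, 1030 and 0.12 CPM. PDGFRA was at 79.7, 51.8, 1286 and 0.73 CPM. Other genes of the members did not follow this order. PRRX2 was at 179 CPM in the members, 92.9 CPM in the others, 24.6 CPM at day 3 and 0.22 CPM at day 5, and JUNB at 530, 323, 88.4 and 3.06 CPM. Of the lower genes, IGFBP3 was at 49.1 CPM in the members, 105 CPM in the others and 1105 CPM at day 3. The comparisons with each later day share the day 0 cells, so the values are set side by side only.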

How the data were processed

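Single-cell RNA libraries of days 0, 3 and 5 were used as deposited UMI counts per gene and barcode, made with Cell Ranger 4.0.0 on GRCh38 per the submitters' processing notes, with the handling of intronic reads not stated there. The deposited counts were summed over members and other day 0 barcodes (22044700 and 215542000 UMIs without the gate genes). CPM, ratios with a floor of 3 UMIs and exact Poisson 95% intervals were computed with Python 3.11.15, numpy 2.4.6, scipy 1.17.1 and pandas 2.3.3. Intervals and limits cover counting error only. No doublet caller was run. Day 3 and day 5 cells had at least 500 UMIs, 300 genes and at most 20% mitochondrial UMIs, and day 5 also at least 2154 UMIs, which is 1/10 of the 99th percentile among its 10000 deepest barcodes. Named genes were the 15 highest and 15 lowest ratios among genes of at least 50 CPM, up to 4 per list and a fixed set, and other genes given for a list were chosen after their values were seen. The members, the gate and the 32 gene lists were chosen with earlier results of these data known. On simulated sums for members against others (8170 genes), 50 of 50 genes changed 2-fold, 50 of 50 changed 3-fold and 50 of 50 changed to 0.4 were called. Called too were 0 of 50 changed 1.2-fold and 0 of 7970 unchanged genes. The sums were drawn from the Poisson model that the intervals assume, with no spread between cells and no gate. At these totals, counting error alone could hardly carry an unchanged gene past 1.5-fold. The simulation therefore cannot show how often real cells would give a false call. Gene symbols are those of the deposited tables. Results of some genes are not reported here.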

Additional observations from a re-analysis of the deposited data

How the results depend on the processing

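No paired analysis was possible because each day was 1 library without replicate numbers. All 24 named genes called higher kept their direction under every alternative tried, and the 26 called lower did so except, with cycling barcodes left out, CENPF (log2 ratio 0.11) and HIST1H4C (0.22). Alternatives that changed only the CPM limit or the required ratio used the same sums, so they could not change a direction. These named genes were also picked by their ratios in the same cells. Genes called higher and lower numbered 162 and 236 with the top 5% as members, 57 and 90 with the top 20%, 62 and 253 with the gate without AREG, 32 and 21 at 50 CPM or more, 322 and 407 with no CPM limit, and 9 and 28 at a ratio of 2. The mean of per-cell CPM called 174 higher, leaving out cycling barcodes called 57 lower, and the gate on AREG alone, added after the data were seen, called 41 lower. Of the named calls, 15 of 24 higher and 22 of 26 lower held with the gate without AREG, and 19 and 14 with AREG alone. The G2 and M median was -0.025 without cycling barcodes, -0.42 with AREG alone and -1.70 without AREG, and stayed at -0.93 at a ratio of 2, which it misses. The S phase median was -0.59 with the top 5%, -0.63 within bins of UMIs, -0.97 without AREG, -0.048 without cycling barcodes and -0.043 with AREG alone. The inflammatory and protease medians were -0.071 and -0.015 with AREG alone. The fibroblast list median, near 0, changed sign with the top 5% (0.0050), the top 20% (0.0082), the gate from thinned barcodes (0.0079), bins of UMIs (0.060), no PLK2 (0.0030), per-cell means (0.12), the barcodes of most UMIs left out (0.011) and AREG alone (0.0040), as did the ERK list with at most 10% mitochondrial UMIs (0.018), the thinned gate (0.014), bins of UMIs (0.047), per-cell means (0.13), the barcodes of most UMIs left out (0.026) and AREG alone (0.020). The cause was not tested. A count of 0 UMIs in the members was set at the floor of 3 UMIs for ratios, worth 0.136 CPM, so low genes limit what can be compared.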

Other observations

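Genes below 50 CPM, outside the rule for named genes and chosen after their values were seen, gave the largest ratios. DACH1, a transcriptional cofactor of development, was at 11.2 CPM in the members and 3.06 CPM in the other day 0 barcodes, and was detected in 17.2% of members and 5.51% of the others. CALCB, a calcitonin gene-related peptide gene, was at 21.3 CPM in the members and 7.0 CPM in the others. GRIA4, a glutamate receptor subunit, was at 16.9 CPM in the members and 5.59 CPM in the others, in 24.1% of members and 10.5% of the others. VWA5A was at 43.5 CPM in the members and 16.8 CPM in the others. These UMIs were spread over many barcodes, the richest 5 members holding 8.94% of the members' DACH1 UMIs and 14% of their CALCB UMIs.

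KDR, a receptor of vascular endothelial growth factor, was at 4.99 CPM in the members (110 UMIs) and 0.923 CPM in the others (199 UMIs), below the level needed for a call. It was detected in 7.72% of members and 1.80% of the others, while the endothelial gene CDH5 had 0 UMIs in both groups. HAS2, which makes hyaluronan, was at 10.3 CPM in the members and 23.3 CPM in the others. MT2A, the main metallothionein here, was at 8936 CPM in the members and 11381 CPM in the others, below the 1.5-fold limit.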
